A study of Mus musculus with 9 samples.

Results

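The genes described are 10 that T cells carry, the T lymphocytes of the adaptive immune system and their regulatory subset: Cd3d, Cd3e, Cd3g, Cd4, Cd2, Spn, Foxp3, Il2ra, Pdcd1 and Tnfsf11. They were selected by gene symbol from a table of 46316 gene symbols measured by RNA sequencing of mouse pancreatic islets, and each was represented by its transcript with the highest total count. Several were picked for being higher in untreated db/db than db/+ islets and lower with treatment, so their values in those comparisons are given as a description without a test. The study holds 9 islet libraries in 3 groups of 3: untreated db/+ mice, untreated db/db mice, and db/db mice given imeglimin and metformin together. Db/db mice are homozygous for the db mutation of the leptin receptor and develop obesity and diabetes, whereas db/+ mice carry it on a single chromosome. Metformin and imeglimin are glucose-lowering drugs, and no group received either alone. The sources used here do not give age, strain background, dose, duration or how many mice went into a library. The labels do not say that the libraries of a group came from separate mice, so a p-value here reflects the spread among these libraries alone, which may be technical.

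The T cell receptor binds peptides held by MHC molecules and signals through the CD3 chains, which do not vary between cells. CD4 is the coreceptor of helper and regulatory T cells and binds MHC class II. The transcription factor FOXP3 defines regulatory T cells, which restrain other T cells and take up interleukin 2 through a receptor whose alpha chain is encoded by Il2ra. A healthy islet holds few lymphocytes, and an islet preparation can also carry exocrine tissue, vessels and small lymph nodes of the pancreas.

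Cd3d, Cd3e and Cd3g lie side by side on mouse chromosome 9, and Cd3d and Cd3g had the most similar profiles of any pair of the 10 genes over the 9 libraries. Cd3g and Cd3d are read in opposite directions, from starts 1355 bases apart. Their sequences are shown because these genes give the count of T cell receptor transcripts that the other genes are set against. Each run holds the 250 bases before the gene's start in RefSeq's annotation of build GRCm38.p6, on the gene's own strand, with GGAA and its reverse complement TTCC, the core recognised by ETS transcription factors, in capitals. The windows are chr9:44981536-44981785 on the plus strand for Cd3d, chr9:45009612-45009861 on the minus strand for Cd3e and chr9:44980432-44980681 on the minus strand for Cd3g.
Cd3d: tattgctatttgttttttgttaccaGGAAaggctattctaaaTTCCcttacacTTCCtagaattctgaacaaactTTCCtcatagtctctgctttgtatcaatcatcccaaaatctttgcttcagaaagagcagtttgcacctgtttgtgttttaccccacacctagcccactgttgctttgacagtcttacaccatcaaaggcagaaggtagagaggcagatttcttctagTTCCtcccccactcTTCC
Cd3e: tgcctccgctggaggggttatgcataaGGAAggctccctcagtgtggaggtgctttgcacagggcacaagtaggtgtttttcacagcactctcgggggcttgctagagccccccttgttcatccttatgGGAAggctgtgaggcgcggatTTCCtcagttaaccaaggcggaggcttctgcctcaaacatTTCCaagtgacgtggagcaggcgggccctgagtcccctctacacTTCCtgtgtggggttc
Cd3g: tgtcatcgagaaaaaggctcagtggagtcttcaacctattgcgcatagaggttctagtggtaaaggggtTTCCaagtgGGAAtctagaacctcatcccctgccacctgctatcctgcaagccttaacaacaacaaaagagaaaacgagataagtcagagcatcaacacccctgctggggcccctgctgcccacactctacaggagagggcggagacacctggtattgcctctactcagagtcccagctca

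The Cd3d window held 6 GGAA cores on either strand, the Cd3e window 5 and the Cd3g window 2. RefSeq windows matched 8 of the 10 genes by symbol, with 9 windows because Foxp3 has a pair of starts; the exceptions were Cd4 and Cd2. All 9 held a GGAA core, with 2 to 7 matches each, and 93.4% of 32851 promoter windows of the same length did. TGTGGT, a core recognised by RUNX factors, was in 0 of the 9 windows and in 14.0% of all windows, searched on both strands. CANNTG, the E-box, was in 7 of the 9 and in 66.2% of all. GATA was in 6 of the 9 and in 53.6% of all. Matches of different motifs may share bases, and no match says only that these letters are not in these 250 bases.

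The libraries held 10292668 to 15281813 counts over all genes. Levels are CPM, counts scaled to library size with TMM factors. An islet identity was plain in every library: the summed level of 10 endocrine markers, insulin and glucagon genes among them, lay between 176769 and 466449 CPM. The untreated db/db libraries stood apart from each other in what else they held. The summed level of 8 B cell markers was 238 CPM in replicate 1, 22.3 in replicate 2 and 18.5 in replicate 3, against 14.0 to 20.2 in db/+ and 2.19 to 3.55 in treated libraries. Summed acinar markers, the digestive enzyme genes of exocrine pancreas, were 1576, 178 and 883 CPM in these 3 libraries, against 6.01 to 83.8 in db/+ and 80.7 to 260 in treated libraries. Every member is therefore given with and without untreated replicate 1 below.

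The CD3 chains, the signalling subunits of the T cell receptor, were close to absent outside untreated db/db islets. Cd3d was counted 0, 0 and 0 times in db/+ replicates 1 to 3, 127, 30 and 17 times in untreated db/db replicates, and 0, 1 and 0 times in treated ones. Cd3e had counts of 0, 0 and 1, then 167, 37 and 28, then 1, 1 and 0. Cd3g was counted in untreated db/db islets only, with 112, 30 and 23. No untreated db/db library overlapped a library of another group for these genes, and replicate 1 held most of the reads. Against db/+ islets, Cd3d was at least 39.9-fold higher, or at least 15.7-fold without untreated replicate 1, and Cd3g at least 37.8-fold, or at least 17.7-fold without it. Cd3e, with 1 count in db/+ islets, was 160-fold higher (95% counting interval 28.4 to 6329), or 65.1-fold without it. The bounds set 3 counts over the group against the group at 0. With treatment, Cd3g was at least 56.7-fold lower, or at least 26.6-fold without untreated replicate 1. Cd3d was 179-fold lower (31.8 to 7129), or 70.6-fold, and Cd3e 120-fold lower (32.8 to 994), or 48.9-fold. In a bulk sample, fewer T cells and less RNA per T cell cannot be told apart.

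CD4 and 2 further surface proteins of T cells followed the same order of groups. Cd4, the coreceptor, had 0, 0 and 2 counts in db/+, 133, 84 and 34 in untreated db/db, and 1, 3 and 2 in treated islets. Untreated db/db islets exceeded db/+ islets 86.3-fold (95% counting interval 23.6 to 717), and 59.1-fold without untreated replicate 1. Treated islets were 43.2-fold lower than untreated ones (19.5 to 119), and 29.6-fold lower without that library. Cd2, an adhesion receptor that binds CD48 in mice, had 0, 1 and 1 counts, then 190, 54 and 28, then 4, 8 and 10. Untreated db/db islets exceeded db/+ islets 93.5-fold in Cd2 (25.6 to 776), or 41.1-fold without untreated replicate 1. It was the member with the most counts left in treated islets, 22 over the group together, and was 12.8-fold lower there than in untreated islets (8.25 to 20.7), or 5.60-fold without untreated replicate 1. Spn, which encodes the sialoglycoprotein CD43 of T cells and other leukocytes, had 1, 0 and 2 counts, then 104, 46 and 20, then 2, 2 and 1. Its level was 39.0-fold higher in untreated db/db islets (13.1 to 191), or 22.0-fold without untreated replicate 1. Treatment went with a 35.1-fold lower level with treatment (14.7 to 109), or 19.8-fold without that library. Such intervals reflect counting error alone and leave out the spread among libraries. They may be too narrow even for that, since a read is not an independent molecule.

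Foxp3 and Il2ra mark regulatory T cells, although activated T cells of other kinds also make the interleukin 2 receptor alpha chain. Foxp3 had 2, 0 and 2 counts in db/+, 75, 39 and 35 in untreated db/db, and 3, 4 and 3 in treated islets. Untreated db/db islets exceeded db/+ islets 25.6-fold (9.80 to 95.3), or 18.5-fold without untreated replicate 1. The treated level was 15.4-fold below the untreated one (8.13 to 32.7), or 11.1-fold without it. Il2ra was the only member with at least 6 counts in every library: 6, 6 and 10 in db/+, 160, 133 and 37 in untreated db/db, and 6, 7 and 8 in treated libraries. Its 10.3-fold difference between untreated db/db and db/+ islets (6.70 to 16.7) was the smallest of the 10, or 7.74-fold without untreated replicate 1. Treated islets were 16.2-fold below untreated db/db islets (10.4 to 26.5), or 12.2-fold without it.

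Foxp3 overlaps other genes in the RefSeq annotation, and no source used here states the strand setting of the counting. Flicr, a long noncoding RNA gene at the Foxp3 locus, had 1, 4 and 1 counts in db/+, 25, 19 and 19 in untreated db/db, and 11, 10 and 14 in treated islets. Thus in each treated library Flicr had more counts than Foxp3, whereas in each untreated db/db library it had fewer. Ccdc22, which also overlaps Foxp3, was counted at 154 to 411 per library, 191, 168 and 154 of them in untreated db/db islets, and did not share the Foxp3 pattern. Reads shared between these genes could not be separated in the count table. Il2ra overlaps a predicted gene, Gm39760, that had 0 counts in every group.

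PD-1, encoded by Pdcd1, is an inhibitory receptor of activated T cells, and RANKL, encoded by Tnfsf11, is a cytokine that activated T cells and stromal cells make. Pdcd1 had 0 counts in all db/+ libraries, 102, 127 and 42 in untreated db/db and 0, 2 and 0 in treated islets. Untreated db/db islets exceeded db/+ islets at least 62.1-fold, and at least 56.5-fold without untreated replicate 1. With treatment it was 140-fold lower (38.3 to 1160), or 127-fold without that library. The Pdcd1 bound moved little without that library because replicate 2 held more of its counts. Tnfsf11 had 1, 0 and 0 counts, then 59, 49 and 11, then 0, 2 and 0. It was 81.8-fold higher in untreated db/db islets (14.4 to 3259), or 60.1-fold without untreated replicate 1. The treated Tnfsf11 level was 61.4-fold below the untreated one (16.6 to 513), or 45.1-fold without untreated replicate 1.

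**Figure D1:**
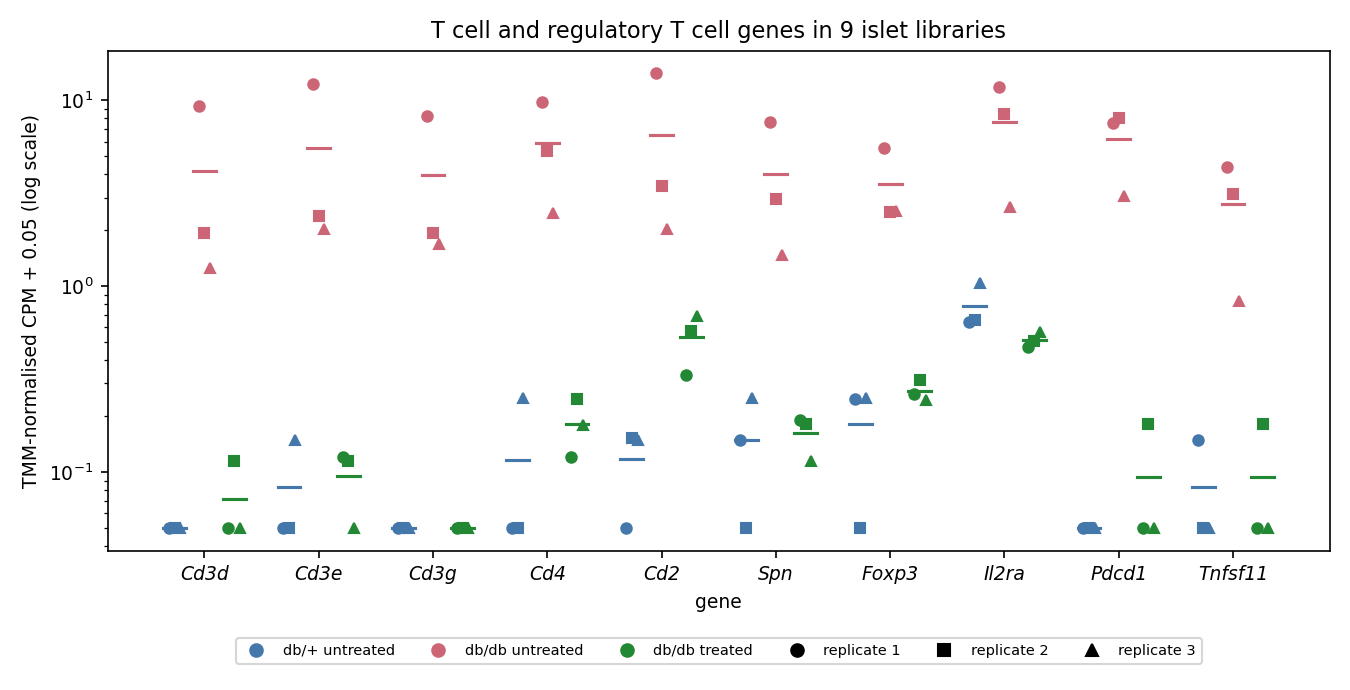
Level of each of the 10 genes in each library, as TMM-normalised CPM plus 0.05 on a log axis, with genes along the x axis, colours for groups, symbols for replicates and bars for group means. All 3 untreated db/db libraries lie above every db/+ and treated library for each gene, and replicate 1 is highest for 9 of the 10.

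All 10 members passed the filter on low counts only through the untreated db/db libraries: with those libraries left out, 0 of the 10 did. A member that passed in this way had to differ between the groups, and these contrasts chose the genes, so no test of the members in them is given. As a description of that choice, the untreated db/db and db/+ groups did not overlap for 10 of 10, where 33.0% of tested genes were higher without overlap. For 10 of 10 the treated and untreated db/db groups did not overlap either, where 8.55% of tested genes were lower without overlap.

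Levels per kilobase of transcript allow the genes to be ordered within untreated db/db islets. Cd2 was highest at 5.62 ± 5.68 CPM per kilobase (SD, n = 3), followed by Cd3g at 3.82 ± 3.63, Cd3e at 3.64 ± 3.83, Pdcd1 at 3.18 ± 1.42 and Cd3d at 3.10 ± 3.37. Cd4 at 1.88 ± 1.19, Il2ra at 1.71 ± 1.04, Tnfsf11 at 1.22 ± 0.802, Spn at 1.0 ± 0.816 and Foxp3 at 0.907 ± 0.453 came below. No neighbours in this order differed by more than the larger of their SDs. The order itself changed between libraries. In replicate 1 Cd2 led at 12.1 CPM per kilobase and Pdcd1 was at 3.86, whereas in replicate 2 Pdcd1 led at 4.14 and Cd2 was at 2.97.

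The 3 untreated db/db libraries did not differ by a common factor across the genes. The summed counts of Cd3d, Cd3e and Cd3g were 406, 97 and 68, so that replicate 1 was 4.86-fold above replicate 2 in normalised level (95% counting interval 3.88 to 6.12). Cd2 showed a 4.08-fold difference (3.00 to 5.63), close to that of the CD3 chains. Foxp3 differed 2.23-fold (1.5 to 3.37), Cd4 1.84-fold (1.39 to 2.44) and Il2ra 1.40-fold (1.10 to 1.77), all with intervals below that of the CD3 sum. Pdcd1 showed no such excess in replicate 1, with a ratio of 0.932 (0.711 to 1.22). For Tnfsf11 the ratio was 1.40 (0.940 to 2.08) and for Spn 2.62 (1.84 to 3.80). The selection of the genes used group differences and not these ratios, but each library is a single sample, so the intervals do not carry over to other mice.

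Replicate 3 was lower than replicate 1 for every member, from 2.2-fold for Foxp3 (1.45 to 3.39) to 7.67-fold for Cd3d (4.61 to 13.6). Between replicates 2 and 3 the order of genes differed again: the CD3 sum was 1.26-fold higher in replicate 2 (0.917 to 1.75) and Foxp3 0.986-fold (0.609 to 1.6), intervals that include 1. Il2ra was 3.18-fold higher in replicate 2 than in replicate 3 (2.2 to 4.71), Tnfsf11 3.94-fold (2.02 to 8.41), Pdcd1 2.68-fold (1.87 to 3.89) and Cd4 2.19-fold (1.45 to 3.36). Replicate 2 thus held more Il2ra, Tnfsf11, Pdcd1 and Cd4 than replicate 3 at a CD3 level that was not distinguishable at this depth.

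**Figure D2:**
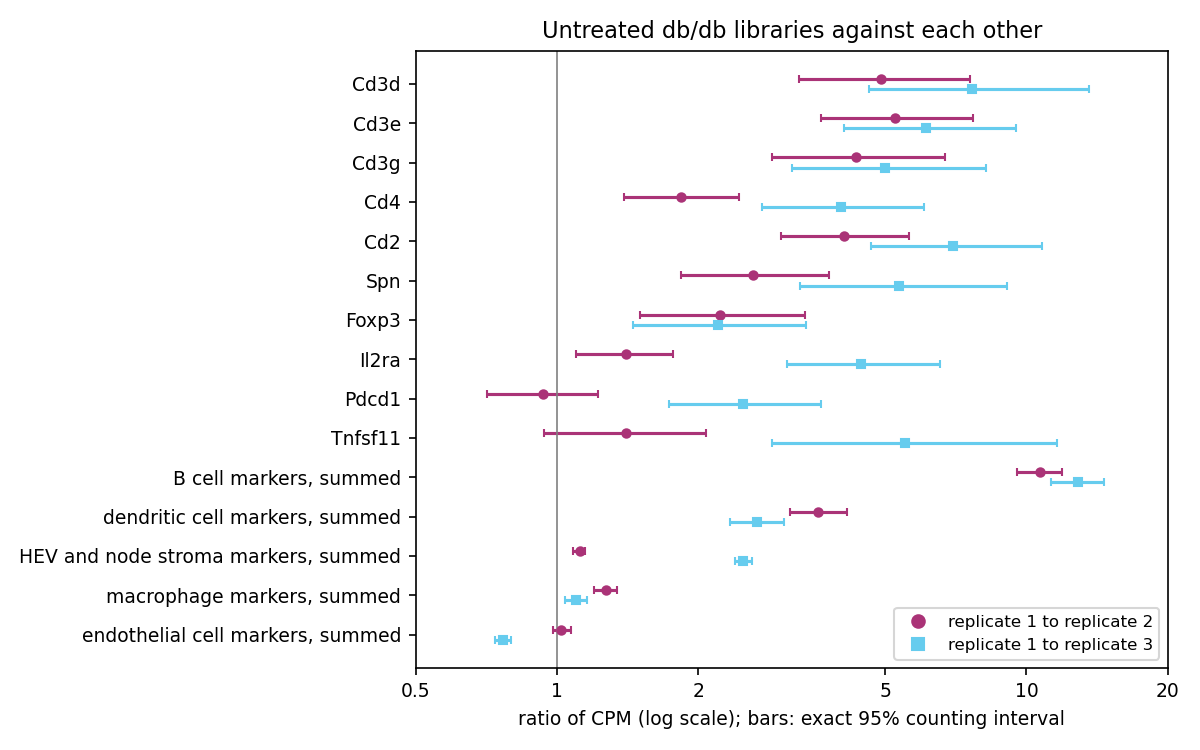
Ratio of the level in untreated db/db replicate 1 to that in replicate 2 and replicate 3 on a log axis, with exact 95% counting intervals, for the 10 genes and for summed marker lists of other cells (HEV, high endothelial venule). The replicate 1 to replicate 2 ratio runs from 0.932 for Pdcd1 to 5.24 for Cd3e and is 10.7 for summed B cell markers.

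Set against CD3 counts in the same library, Pdcd1 made up 20.1% of Pdcd1 plus CD3 counts in untreated replicate 1 (exact 95% interval 16.7 to 23.8), 56.7% in replicate 2 (49.9 to 63.3) and 38.2% in replicate 3 (29.1 to 47.9). Il2ra made up 28.3% (24.6 to 32.2), 57.8% (51.2 to 64.3) and 35.2% (26.2 to 45.2) in the same order. The Foxp3 share was lowest in replicate 1, at 15.6% (12.5 to 19.1), against 28.7% (21.3 to 37.1) and 34.0% (24.9 to 44.0). Tnfsf11 stood out in replicate 2 alone, with 12.7%, 33.6% and 13.9%. The Cd2 share varied least, with 31.9%, 35.8% and 29.2% and overlapping intervals. The Cd4 share was 24.7% (21.1 to 28.5), 46.4% (39.0 to 54.0) and 33.3% (24.3 to 43.4). Relative to CD3, replicate 1 was thus below replicate 2 in Pdcd1, Il2ra and Cd4, with intervals apart. Replicate 3 lay between them, but its interval overlapped that of replicate 1 for Il2ra and those of both for Cd4.

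**Figure D3:**
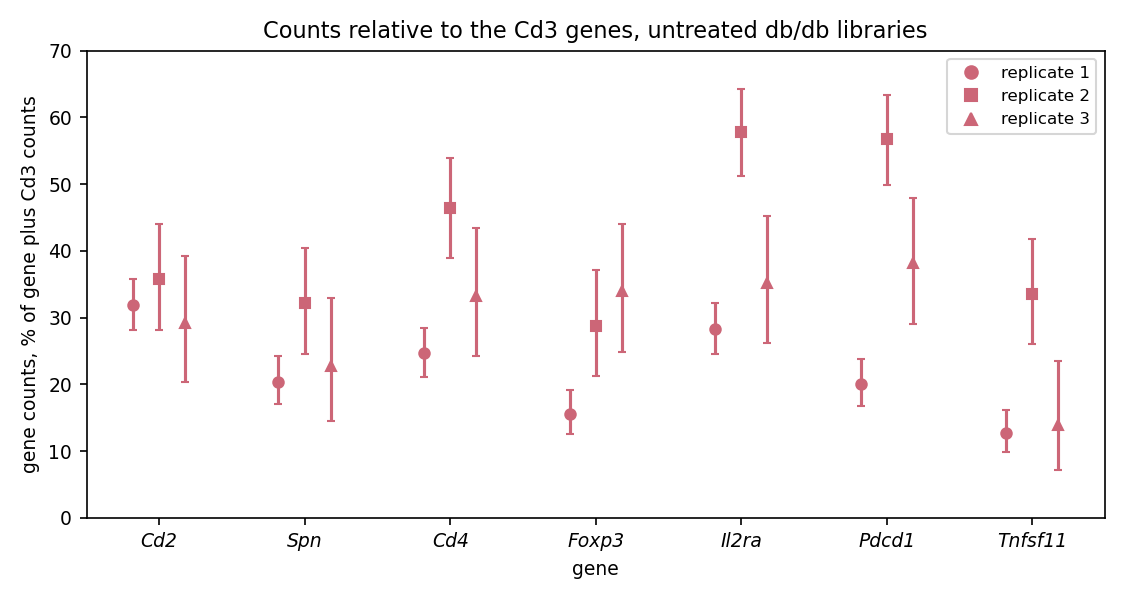
Counts of each gene as a percentage of that gene plus Cd3d, Cd3e and Cd3g counts in the 3 untreated db/db libraries, with exact 95% counting intervals. Pdcd1 runs from 20.1% in replicate 1 to 56.7% in replicate 2, while Cd2 stays between 29.2% and 35.8%.

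The same ratio could hardly be measured after treatment, because the treated libraries held 1, 2 and 0 CD3 counts. An exact permutation test of 3 against 3 libraries cannot go below p = 0.1, so it could not pass the threshold, and nothing is drawn from it.

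Markers of other cells differed between the same libraries. Beside the CD3 ratio of 4.86 between untreated replicates 1 and 2, the summed B cell markers differed 10.7-fold (9.56 to 11.9), dendritic cell markers 3.60-fold (3.14 to 4.15) and acinar markers 8.87-fold (8.53 to 9.23). Ccl22, with 535 of the 839 dendritic counts in replicate 1, differed 11.5-fold (8.68 to 15.5) and Flt3 10.8-fold (4.94 to 27.8). Itgax differed 1.81-fold (1.28 to 2.57) and Zbtb46 1.01-fold (0.784 to 1.29). These 4 were named after their values were seen. The 7 markers of high endothelial venules and lymph node stroma, the vessels and scaffold of lymph nodes, differed 1.12-fold in sum (1.08 to 1.15). Glycam1, with 4786 of the 7427 counts of that sum in replicate 1, had a ratio of 0.916 (0.882 to 0.951), whereas Ccl21a differed 1.75-fold (1.63 to 1.87), Madcam1 1.36-fold (1.12 to 1.64) and Cxcl13 51.8-fold (23.5 to 142), with 268 against 6 counts. Macrophage markers differed 1.27-fold in sum (1.20 to 1.34), but not by a common factor. Their ratios ran from 0.884 for Csf1r (0.698 to 1.12) to 3.16 for Mrc1 (1.54 to 7.0). For C1qa the ratio was 0.925 (0.852 to 1.0) and for Lyz2 2.19 (1.97 to 2.43). Cd8a, the coreceptor of cytotoxic T cells, differed 7.09-fold (4.28 to 12.4), with counts of 110, 18 and 13. Their part in the differences among the 10 genes was not tested.

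Across groups, the summed level of the 10 members was 0.714 to 1.79 CPM in db/+, 19.6 to 89.8 in untreated db/db and 1.20 to 1.96 in treated libraries. The high endothelial venule and lymph node stroma list moved with it, at 0.198 to 1.09, 218 to 543 and 0.452 to 4.12 CPM. The 6 of its 7 genes that were tested were all called higher in untreated db/db against db/+ islets by edgeR's quasi-likelihood test (Benjamini-Hochberg adjusted p under 0.05). In that comparison 31.3% of all tested genes were called higher and 32.0% lower. Chst4 and Ccl21a were at 0 in every db/+ library. With treatment 2 of the 6 were called lower by edgeR's test, Glycam1 (adjusted p = 0.00251) and Chst4 (adjusted p = 0.0258), both named after their values were seen. Of all tested genes 0.173% were called lower there. Glycam1 had 0, 1 and 3 counts in db/+ and 0, 1 and 0 in treated libraries, and Chst4 had 0, 0 and 0, then 1, 0 and 0. Genes with so few counts there passed the filter through untreated db/db libraries and had to differ in these directions, so their calls are a description only. B cell markers had 5 of 8 called higher in untreated db/db against db/+ islets and 0 of 8 called with treatment. Ms4a1 and Cr2 were at 0 in db/+ libraries and Cr2 and Blk at 0 in treated libraries, and these genes passed the filter in the same way. With genes at 0 set to their bound, the median log2 difference of the 8 was 5.94 in the first comparison and -6.3 with treatment, so the missing calls do not show that these markers held their level. Macrophage markers summed to 126 to 132 CPM in db/+, 159 to 202 in untreated db/db and 145 to 163 in treated libraries, with 4 of 8 called higher and 2 lower in untreated db/db against db/+ islets and 0 called with treatment. C1qa gave much of that sum, at 62.4 to 66.9, 76.8 to 90.5 and 81.6 to 99.1 CPM. Lyz2 had its highest levels in the untreated db/db libraries, as the members did, at 10.9 to 12.5 CPM in db/+, 35.3 to 77.2 in untreated db/db and 21.5 to 24.1 in treated libraries. Both were named after their values were seen. Dendritic cell markers were at 13.9 to 20.2 CPM in db/+, 17.0 to 61.3 in untreated db/db and 10.1 to 16.5 in treated libraries. Ccl22, named after its values were seen, gave 39.1 CPM of the 61.3 in untreated replicate 1. Plasma cell markers ranged from 3.76 to 60.5 CPM and natural killer cell markers from 0 to 5.19 CPM. Endothelial markers were at 489 to 550 CPM in db/+ and 290 to 411 CPM in db/db libraries. The part of these cells in the members' differences was not tested.

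**Figure D4:**
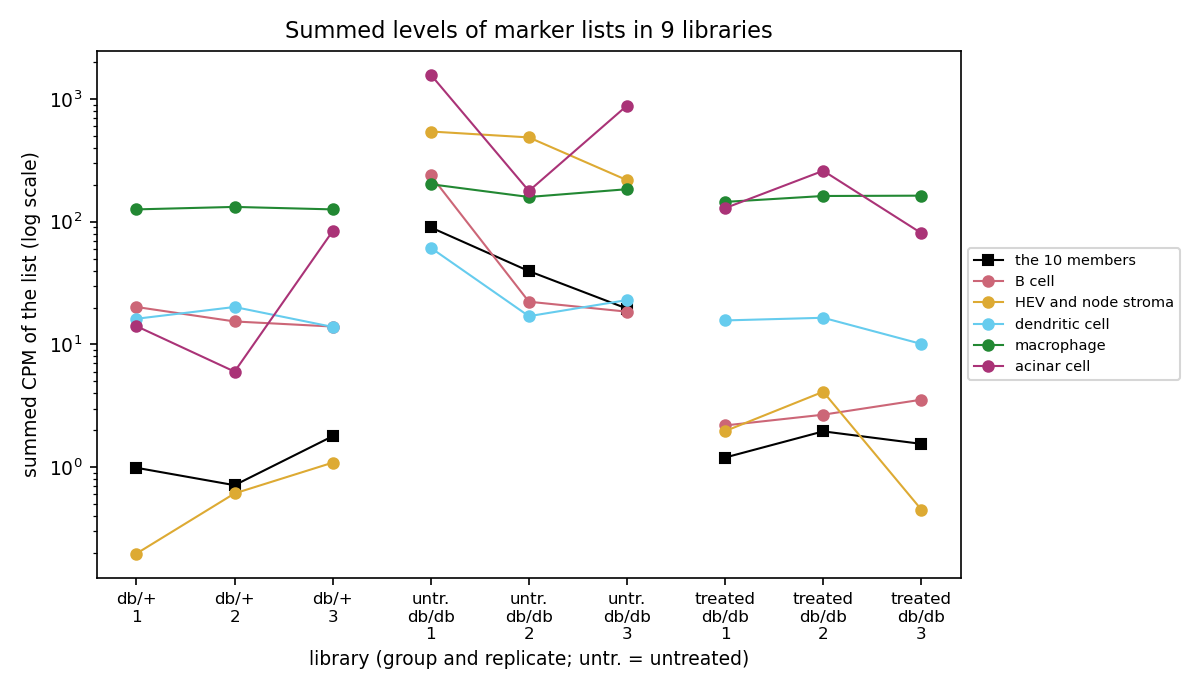
Summed CPM of marker lists in each of the 9 libraries on a log axis, with the 10 T cell genes in black. The T cell genes and the high endothelial venule (HEV) and lymph node stroma markers are high in all 3 untreated db/db libraries, B cell markers reach 238 CPM in replicate 1, and macrophage markers lie between 126 and 202 CPM.

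Treated db/db islets and db/+ islets held few counts of the members, which were tested there only because the untreated db/db libraries carried them past the filter, so a call could hardly be made and its absence says nothing of the groups. Cd2 had 2 counts in db/+ and 22 in treated libraries, at 0 to 0.102 CPM and 0.282 to 0.645 CPM, and its log2 fold change was 2.70 ± 1.5 (SE; edgeR adjusted p = 0.143). The adjusted p of Cd2 was 0.0369 in DESeq2 and 0.0105 without untreated replicate 1, and ranged from 0.0105 to 0.358 over the alternatives in which it was tested. Il2ra lay at 0.594 to 0.993 CPM in db/+ and 0.423 to 0.516 in treated libraries, a log2 fold change of -0.64 ± 0.641 (edgeR adjusted p = 0.397). These were the 2 members whose groups did not overlap, Cd2 higher and Il2ra lower, where 35.7% of tested genes were higher without overlap and 35.2% lower. Cd3d, Cd3e, Cd3g, Pdcd1 and Tnfsf11 were at 2 counts or fewer in both groups, which allows no fold.

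A list of 105 further T cell genes in 9 groups places the members among their pathway. Of 73 that passed the filter, untreated db/db islets had 39 higher and 10 lower than db/+ islets by edgeR's test, where 63.2% of all tested genes were called, 31.3% higher and 32.0% lower. With limma voom the split was 24 higher and 13 lower. Their median log2 difference was 1.54, the same with genes at 0 set to their bound, against 0.0236 for all tested genes. Of the 73, 27 passed the filter only through untreated db/db libraries and could hardly avoid being higher there, and 24 of them were called higher. Among genes named below, Cd247, Cd8a, Zap70, Tnfrsf18, Nt5e, Ctla4, Icos, Cd27, Btla, Runx3, Lef1, Itgb7, Il2rb and Pdcd1lg2 passed in this way. Calls of such genes are a description only. Among the 46 that passed without those libraries, 15 were higher and 10 lower. Without untreated replicate 1, the counts were 37 higher and 16 lower of 76 tested.

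Of the receptor complex and its signalling genes, 10 of the 16 tested rose and 1 fell. Of all tested genes 31.3% were called higher and 32.0% lower. Cd247, Cd8a and Zap70 passed the filter only through untreated db/db libraries, so their rises are a description only. Cd247, the zeta chain of the receptor complex, rose by a log2 fold change of 2.47 ± 0.78 (SE; edgeR adjusted p = 0.0179), from 0.502 ± 0.208 to 2.84 ± 2.67 CPM. It missed the threshold without untreated replicate 1 (log2 1.37, adjusted p = 0.0617), without db/+ replicate 1 (0.0569) and without db/+ replicate 3 (0.0720). Cd8a was at 0 in db/+ and treated libraries and did not pass (adjusted p = 0.0885), but did without untreated replicate 1 (0.00132). Of the 14 tested signalling genes, 9 rose and 1 fell. The kinase gene Zap70 (log2 2.06 ± 0.549) and the Ras activator Rasgrp1 (2.12 ± 0.349) rose, while the adaptor gene Skap1 fell by 1.73 ± 0.176 on the log2 scale, from 52.9 ± 9.94 CPM. Without untreated replicate 1 the ratio of summed counts went from 4.16 to 2.72 for Zap70. Lck, the kinase that starts receptor signalling, was not called (log2 1.20 ± 0.631, adjusted p = 0.13).

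Among 9 tested regulatory T cell genes besides the members, 3 rose and 3 fell in untreated db/db islets. Of all tested genes 31.3% were called higher and 32.0% lower, so this split is close to that of all genes. Tnfrsf18, Nt5e and Ctla4 passed the filter only through untreated db/db libraries, so their rises are a description only. Tnfrsf18, which encodes the receptor GITR, rose by log2 5.80 ± 1.06 from 2 counts over the db/+ group, and the ectonucleotidase gene Nt5e by 4.48 ± 0.813. Without untreated replicate 1 the ratios went from 61.9 to 29.1 for Tnfrsf18 and from 22.7 to 11.5 for Nt5e. Ctla4, an inhibitory receptor gene, was at 0 in db/+ libraries and at 72, 36 and 14 counts in untreated db/db libraries. Ikzf2 and Ikzf4, zinc finger factors of regulatory T cells, fell instead by 0.64 ± 0.118 and 0.90 ± 0.171 on the log2 scale, from 18.2 ± 1.53 and 33.6 ± 4.52 CPM. These db/+ levels far exceeded the 0.132 ± 0.114 CPM of Foxp3. Lrrc32, which holds latent TGF-beta at the cell surface, was at 28.1 ± 2.91 and 28.7 ± 11.7 CPM and was not called (adjusted p = 0.945).

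Among 7 tested costimulation and checkpoint receptors, 3 rose and 1 fell, where 31.3% of all tested genes were called higher and 32.0% lower. Icos, Cd27 and Btla passed the filter only through untreated db/db libraries, so their rises are a description only. Icos, a costimulatory receptor gene, had 0 counts in db/+ libraries and was at least 35.1-fold higher in untreated db/db islets, or at least 23.7-fold without replicate 1. Cd27 rose from 1 count over the db/+ group, and Btla rose by log2 4.75 ± 1.30 but missed the threshold without db/+ replicate 3 (adjusted p = 0.0544). The checkpoint gene Lag3 went the other way and fell by 1.5 ± 0.26 on the log2 scale. Of 9 tested transcription factor genes, 7 rose, where 31.3% of all tested genes were called higher. Runx3 (log2 3.82 ± 0.76) and Lef1 (4.54 ± 0.992) were among the 7, and both passed the filter only through untreated db/db libraries. Their ratios went from 14.1 to 6.38 and from 24.8 to 10.7 without untreated replicate 1, as did those of Cd27, from 79.8 to 39.1, and Btla, from 27.0 to 8.30. Tox, a factor of T cell development and exhaustion, rose from 8.31, 6.01 and 7.74 CPM to 32.1, 37.6 and 28.7, and was at 39.4, 38.8 and 44.4 CPM in treated libraries. Tox thus did not follow the members' order of groups.

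Of 9 tested homing and adhesion genes, 7 rose and 0 fell, where 31.3% of all tested genes were called higher and 32.0% lower. The integrin genes Itgal (log2 3.26 ± 0.657) and Itgb7 (3.84 ± 1.04) and the selectin ligand gene Selplg (2.73 ± 0.604) were among the 7. Itgb7 passed the filter only through untreated db/db libraries. Without untreated replicate 1 the ratio of summed counts went from 9.38 to 4.81 for Itgal, from 14.4 to 5.58 for Itgb7 and from 6.52 to 3.67 for Selplg. S1pr1, which guides lymphocytes out of tissue, was not called (log2 -0.24 ± 0.231, adjusted p = 0.396).

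Of 15 effector and cytotoxic genes, 11 did not pass the filter. Il4 was at 0 in all 9 libraries, Il2 had 1 count in all, and Ifng had 2 counts, both in untreated db/db replicate 1. Il17a had 1, 3 and 1 counts in untreated db/db islets and none elsewhere. Gzmb, which encodes the protease granzyme B of cytotoxic cells, had 71, 37 and 6 counts in untreated db/db, 0, 0 and 2 in db/+ and 1, 5 and 0 in treated libraries. These 5 genes were named after their values were seen. Of the 4 tested, Ccl5, a chemokine that T cells and other cells make, was at 79.1 ± 3.18 CPM in db/+ and 25.8 ± 12.9 in untreated db/db islets (SD, n = 3 each) and was not called (edgeR adjusted p = 0.0833). Tnf, the cytokine tumor necrosis factor, was at 33.4 ± 1.12 and 10.8 ± 4.09 CPM and was not called either (edgeR adjusted p = 0.051). Lta fell by 1.19 ± 0.354 on the log2 scale, and Ltb rose by 2.17 ± 0.769 (adjusted p = 0.0414) but was not called without untreated replicate 1 (log2 1.16, adjusted p = 0.0593), nor without any of 5 other libraries, db/+ replicates 1, 2 and 3 (adjusted p = 0.0991, 0.118 and 0.0687) and treated replicates 1 and 2 (0.0638 and 0.0592).

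Receptors and ligands that pair with the members did not share a direction. The beta chain of the interleukin 2 receptor, Il2rb, went with Il2ra: it had 3, 7 and 3 counts in db/+, 453, 355 and 79 in untreated db/db and 11, 15 and 5 in treated libraries, and rose by log2 5.52 ± 0.853 in untreated db/db islets. Between untreated replicates 1 and 2 it differed 1.48-fold (1.29 to 1.71), within the interval of Il2ra. Il7r also rose (log2 3.04 ± 0.386), whereas Il15ra and Jak3 fell by 1.32 ± 0.145 and 1.57 ± 0.379. Of the ligands of PD-1, Pdcd1lg2 rose by log2 5.22 ± 0.85 from 2 counts over the db/+ group, while Cd274, encoding PD-L1, fell by 0.45 ± 0.107 from 93.1 ± 8.06 CPM. The Pdcd1lg2 ratio went from 41.6 to 24.6 without untreated replicate 1. Il2rb and Pdcd1lg2 passed the filter only through untreated db/db libraries, so their rises are a description only. Tnfrsf11b, encoding osteoprotegerin, the soluble decoy receptor of RANKL, rose by log2 3.31 ± 0.30 in untreated db/db islets and was just as high in treated islets, at 54.4 ± 9.71 and 54.7 ± 8.35 CPM against 5.49 ± 2.80 in db/+. H2-Aa, an MHC class II gene whose product CD4 binds, was not called (log2 0.76 ± 0.579, adjusted p = 0.288).

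With treatment, 2 of the 73 genes were called, both lower, where 0.179% of all tested genes were called, 0.173% lower and 0.00597% higher. Zap70 fell by 3.41 ± 0.594 on the log2 scale (edgeR adjusted p = 0.0473), from 5.12, 2.33 and 1.42 CPM to 0.564, 0.131 and 0.129. It passed the filter only through untreated db/db libraries, so its call is a description only. The ratio of its summed counts was 10.9 (6.04 to 21.7), and 7.14 (3.79 to 14.6) without untreated replicate 1. Tnfrsf4, the costimulatory receptor OX40, fell by 2.08 ± 0.34 (adjusted p = 0.0346), from 8.63, 4.03 and 3.77 CPM to 1.2, 1.5 and 1.16. Neither was called without any single db/+ or treated library, with adjusted p from 0.0744 to 0.251 for Zap70 and from 0.0564 to 0.198 for Tnfrsf4. Of the 73 genes, 51 had an unadjusted p under 0.05, and DESeq2 called 38, all lower. The count was 25 without untreated replicate 1, 25 without replicate 2 and 28 without replicate 3, again all lower, and 0 without any single one of the 6 db/+ and treated libraries. The median log2 difference of the 73 was -2.19, the same with genes at 0 set to their bound, against 0.0705 for all tested genes. Of the 73, 27 passed the filter only through untreated db/db libraries and could hardly avoid being lower with treatment. The median and the counts of lower genes thus partly reflect the filter. Zap70 was the 1 called lower among these 27. Tnfrsf4 was the 1 called lower among the 46 that passed without those libraries. Among the genes not called, Fyn (log2 -0.23 ± 0.104), Lrrc32 (-0.29 ± 0.272), Stat5b (0.15 ± 0.0866) and Cd274 (-0.12 ± 0.107) had the smallest differences of those named.

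**Figure D5:**
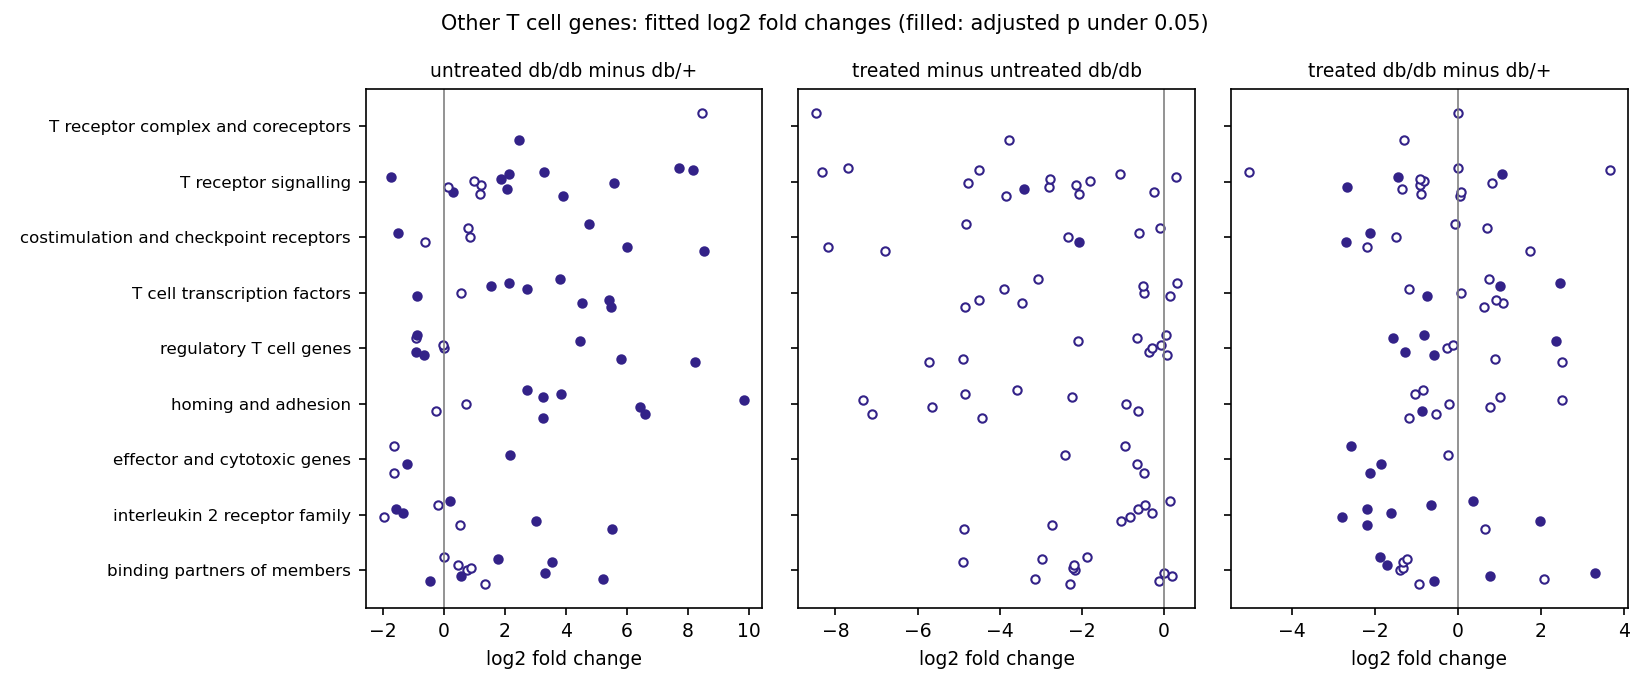
Fitted log2 fold changes of the 73 tested T cell genes that are not among the 10, by list, in the 3 comparisons; filled points passed edgeR's test at an adjusted p under 0.05. Fits of genes with no count in a group depend on the prior count and are no bound. In untreated db/db against db/+ islets 39 genes were called higher and 10 lower, with treatment 2 lower, and in treated db/db against db/+ islets 8 higher and 21 lower.

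Treated db/db islets against db/+ islets gave 8 of the 73 genes higher and 21 lower, where 65.3% of tested genes were called, 32.8% higher and 32.5% lower. Their median log2 difference was -0.65, against 0.0164 for all tested genes. Those higher included Tox (log2 2.47 ± 0.144), Tnfrsf11b (3.31 ± 0.30), Il7r (1.98 ± 0.397) and Tnfrsf11a, the RANKL receptor (0.77 ± 0.159). Among those lower, Lat, an adaptor of T cell receptor signalling, fell by 2.66 ± 0.64 on the log2 scale, Tnfrsf4 by 2.68 ± 0.341, Lag3 by 2.11 ± 0.27, Ccl5 by 2.58 ± 0.731, Jak3 by 2.19 ± 0.39 and Cd274 by 0.58 ± 0.107. Skap1 and Il15ra, already lower in untreated db/db islets, were lower in treated islets too, by 1.44 ± 0.173 and 1.60 ± 0.147. Of the 29 genes called here, 28 were among the 46 that passed the filter without untreated db/db libraries.

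By root mean square difference of centred log2 CPM over the 9 libraries, the tested genes outside the members most like their median profile included, in order, Ctla4 (0.233), Trbc1 (0.281), Cd27 (0.297), BE692007 (0.333), Tnfrsf18 (0.334), Gpr183 (0.352), Cd8a (0.357), Il1rl1 (0.366) and Cmah (0.386). Trbc1, a constant region of the T cell receptor beta chain, had 132, 44 and 24 counts in untreated db/db libraries, 0 in db/+ and 2 in treated libraries. Il1rl1, the interleukin 33 receptor, had 143, 58 and 19 counts in untreated db/db libraries, 0 in db/+ and 2 in treated libraries. Among the members, Cd3d and Cd3g were closest to each other (0.222) and Il2ra and Pdcd1 farthest apart (1.036). The measure is a description over libraries of unequal depth, and these genes had few or no counts outside the untreated db/db group.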

How the data were processed

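The authors deposited a table of raw counts with 1 line for each of 139023 RefSeq transcripts, which carry 46316 gene symbols, per the file headers. Total RNA was purified on columns and made into directional libraries, per the labels' protocols. The submitters' processing notes name build GRCm39, featureCounts 2.0.0, HISAT2 2.2.1 and cutadapt 1.9.1. How strand and multiply aligned reads were handled is not given in the sources used here. Each gene was represented by its transcript with the highest total. Groups follow the labels. R 4.3.3, edgeR 4.0.16 (quasi-likelihood test, TMM, robust, filterByExpr by group, 9 libraries, no block), limma 3.58.1 and DESeq2 1.42.0 were used. Of all genes 16761 passed the filter and were tested, with Benjamini-Hochberg adjustment over them. The test was run on simulated data first. Bounds use 3 counts over a group, and intervals are exact at 95%.

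The 10 genes and the lists were chosen with earlier results of these data known. In each comparison and list, the text could name up to 4 called genes with the smallest p and the highest uncalled gene, plus the 10 genes most like the members; a gene named otherwise is marked. Some genes under this rule are not reported here. The alternatives were upper-quartile factors, DESeq2, no filter, summed transcripts, a replicate block, limma voom, the 2 groups alone and leaving out each library. RefSeq promoter windows of GRCm38.p6 were used for their letters, names and neighbours only.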

Additional observations from a re-analysis of the deposited data

How the results depend on the processing

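The numbers of genes called against db/+ islets, both directions summed, stayed within 1.5 times of the main count under all 16 alternatives, for all genes and for the T cell list; with limma voom the list's split in untreated db/db against db/+ islets was 24 higher and 13 lower, where edgeR gave 39 and 10. The comparison of treated with untreated db/db islets did not. There 30 genes were called, and 629 with DESeq2 (133 higher, 496 lower), 228 with no filter, 116 with the replicate block, 9 with summed transcripts, 7 with limma voom and 0 with the 2 groups alone, where 2801 had an unadjusted p under 0.05. Of the T cell list 2 were called, and 38 with DESeq2, 20 with the replicate block, 10 with no filter and 0 with summed transcripts, limma voom or the 2 groups alone. Leaving out single libraries gave 6 to 436 genes, and 0 to 28 of the list. The cause was not tested. Upper-quartile factors moved the median of all genes by 0.107 (log2) between untreated db/db and db/+ islets, with all 10 members higher in both.

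Same-numbered libraries were not shown to be paired: correlations of their deviations from the group means ran from -0.427 to 0.059, and 1 of 9 libraries correlated best with its own number, so these libraries share only a number.

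The genes that reversed were not called in that comparison: between treated db/db and db/+ islets, Spn (-0.44 and -0.02 without db/+ replicate 2 and treated replicate 1; -0.44 to 0.99 over single libraries left out), Bcl6 (-0.12 and -0.09 without db/+ replicate 3 and treated replicate 2) and Ltb (0.06 and 0.16 without db/+ and treated replicate 3; -0.53 to 0.16). Between untreated db/db and db/+ islets they were Lrrc32 (-0.05 with limma voom, 0.0 and -0.34 without db/+ and untreated replicate 3; -0.34 to 0.25), S1pr1 (0.04 without db/+ replicate 1; -0.47 to 0.04) and H2-Aa (-0.16 without untreated replicate 1; -0.16 to 1.1). With treatment it was Lrrc32 (0.09 without untreated replicate 3; -0.5 to 0.09). The Pdcd1 difference in log2 ratio to CD3 counts, treated against untreated db/db islets, was 0.23, -0.83 with Cd3e alone, and from -0.38 to 0.81 with a library left out. The cause was not tested. Treated libraries held at most 2 CD3 counts, so depth limits that ratio.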
